A study of Rattus norvegicus with 9 samples.

Results

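The genes that hold epithelial cells to each other and to the basement membrane were followed in the prostates of rats with and without hormone-induced prostate enlargement. 41 genes were taken from a list of symbols: 4 of the adherens junction, Epcam, 12 claudins, 6 other tight junction genes, 7 of the desmosome, 7 of basal adhesion and 4 regulators or basal cell markers. A probe was found through the RefSeq accession for 32 of the 41, out of 15163 genes with a named probe. No probe was matched for Cgn, Dsp, Dsg2, Pkp1, Itga3, Itga6, Lama3, Col17a1 and Dst, which are not analysed here. Of the 32 genes, Cldn2 and Cldn11 were not well above background on any of the 9 arrays, and Ngfr was well above it on 1 array only, sham replicate 1. The other 29 genes passed the filter on dim probes in each comparison, for which 3 or more of the 6 arrays in it had to be well above background.

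Gene expression had been measured with one-colour Agilent rat arrays in the prostates of male Sprague Dawley rats aged 6 weeks at purchase, with 3 arrays per group. Sham rats underwent a sham operation for castration, with corn oil under the skin and an oral vehicle. BPH rats were castrated and received dihydrotestosterone (DHT) under the skin at 3 mg/kg daily for 4 weeks, with the oral vehicle. BPH+ghrelin rats were castrated, received the same DHT treatment, and were given rat ghrelin, a peptide hormone of the stomach, by mouth at 20 nmol/kg daily for the last 2 weeks. In treatment, BPH therefore differed from sham by castration and by DHT at once, while BPH+ghrelin differed from BPH by ghrelin. The route and agents are those of the study's methods, while a legend of the study names testosterone and an injected route for ghrelin. The study counts as many rats as arrays for the 2 groups of castrated rats, but the sources used here do not say which rats these were or whether RNA was pooled, so p-values measure the spread between these arrays. The samples were whole prostates, in which fewer epithelial cells and less RNA per epithelial cell cannot be told apart.

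The prostate gland is lined by luminal cells that secrete and, beneath them, basal cells that rest on the basement membrane. Luminal cells are joined by tight junctions, made of claudins, occludin and related membrane proteins tied to scaffolds of the ZO family, and by adherens junctions, where E-cadherin is linked through catenins to actin. Desmosomes anchor keratin filaments between cells, and hemidesmosomes anchor basal cells through an integrin to laminin. The barrier keeps secretions in the lumen, and the basal cell layer is a hallmark of intact prostate glands.

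The promoters of 4 members are shown: Marveld2 and Lamb3 because they passed the test below, Ocln as the related neighbour of Marveld2, and Cldn6 as a claudin described below. Ctnna1, which also passed the test, is named without a sequence. Each run covers the 250 bases before to the 50 bases after the start of the gene, from RefSeq on assembly GRCr8, in the direction of the gene. Marveld2 (chr2:33498176-33498475, minus strand) and Ocln (chr2:33441149-33441448, minus strand) encode related membrane proteins of the tight junction and lie near each other on chromosome 2, with 3 genes starting between them, 0 of them protein-coding. Lamb3 is at chr13:107362303-107362602 on the plus strand and Cldn6 at chr10:13215558-13215857 on the plus strand. Capitals mark CAGGTG on either strand, an E-box of the kind bound by Snail and ZEB repressors of epithelial genes.
Marveld2: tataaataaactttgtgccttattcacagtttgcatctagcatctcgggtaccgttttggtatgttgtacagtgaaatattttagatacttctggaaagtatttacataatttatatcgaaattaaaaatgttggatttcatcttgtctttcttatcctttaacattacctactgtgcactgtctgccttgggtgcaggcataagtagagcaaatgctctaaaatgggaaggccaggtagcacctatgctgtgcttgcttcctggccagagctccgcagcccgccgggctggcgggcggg
Ocln: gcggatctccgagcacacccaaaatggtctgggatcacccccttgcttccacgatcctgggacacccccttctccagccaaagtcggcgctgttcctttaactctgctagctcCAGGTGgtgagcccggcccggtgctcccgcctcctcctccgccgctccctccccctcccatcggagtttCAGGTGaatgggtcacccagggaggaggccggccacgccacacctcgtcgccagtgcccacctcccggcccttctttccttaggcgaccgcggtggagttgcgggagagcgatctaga
Lamb3: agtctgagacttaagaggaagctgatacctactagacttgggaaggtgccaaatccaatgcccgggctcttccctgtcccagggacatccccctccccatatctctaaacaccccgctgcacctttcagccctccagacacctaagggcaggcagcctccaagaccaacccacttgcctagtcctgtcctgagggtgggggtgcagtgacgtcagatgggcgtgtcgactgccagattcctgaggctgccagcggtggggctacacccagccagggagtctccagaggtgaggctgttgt
Cldn6: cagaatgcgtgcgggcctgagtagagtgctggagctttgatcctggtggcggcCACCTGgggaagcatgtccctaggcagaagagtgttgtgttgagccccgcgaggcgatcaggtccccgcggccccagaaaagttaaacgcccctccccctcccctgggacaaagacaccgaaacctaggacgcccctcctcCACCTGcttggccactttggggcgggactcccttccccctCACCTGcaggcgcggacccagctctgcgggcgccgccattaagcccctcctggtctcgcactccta

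CAGGTG occurred 2 times in Ocln, with its first base at -137 and -68 from the start, and 3 times in Cldn6, at -197, -56 and -16, and not in the windows of Marveld2 and Lamb3. The window of Cldn10, a claudin also described below and not shown, did not hold it either. Of the 28 members with a promoter in the table, tested or not, 14 held this motif, beside 18.8% of the 33469 promoters of the same length. TGANTCA, the motif of AP-1, was found in 3 of the 28 (Epcam, F11r and Lama3) and in 7.33% of all promoters, and AACCNGTT, the motif of the grainyhead family to which Grhl2 belongs, in 2 of the 28 (Cgn and Tjp1) and in 2.1% of all promoters. Both strands were searched, and the motifs do not overlap in letters with each other. These are matches of letters and not measured binding.

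Before the results, the arrays are described. Sham replicate 2 stood apart: its share of probes well above background was 61.4%, where the 8 others had 69.5% or more, and its signals of the members deviated from their means by a median of -0.52 on the log2 scale. It gave the lowest of the 9 values for 15 of the 29 members. Differences from sham without this array are given beside those it moved most. BPH replicate 2 lay between the other BPH arrays for 70.6% of all probes and for 26 of the 29 members, and BPH+ghrelin replicate 2 and sham replicate 3 likewise lay between their group's other arrays for 68.3 and 72.8% of probes. The remaining arrays did so for only 10.1 to 17.9% of probes, so the split was uneven in every group. Its cause was not tested. Arrays were assigned to slides by a scan identifier in the scanner output, and those that shared it were taken to share a slide. By this reading the 3 BPH arrays shared slide 1 with BPH+ghrelin replicate 1, and sham replicates 1 and 2 shared slide 2 with BPH+ghrelin replicates 2 and 3. Sham replicate 3 was on slide 3. No slide held both BPH and sham, so a difference between BPH and sham cannot be told apart from one between slides except through the BPH+ghrelin arrays. BPH+ghrelin replicates 2 and 3 were on another slide than all BPH arrays. The comparison of BPH+ghrelin to BPH is therefore also partly one between slides, and within slide 1 it rests on 1 BPH+ghrelin array. The probasin gene Pbsn, a marker of rat prostate secretory cells, was well above background on all 9 arrays, with mean log2 signals of 16.29 in sham, 13.64 in BPH and 14.40 in BPH+ghrelin. The genes of seminal vesicle and coagulating gland, 7 with a probe, had summed signals of 90844 to 158557 in sham, 745 to 28525 in BPH and 578 to 3967 in BPH+ghrelin, and 3 of the 7 were lower in BPH compared to sham in the limma test. The part of these differences in the values below was not tested.

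**Figure D1:**
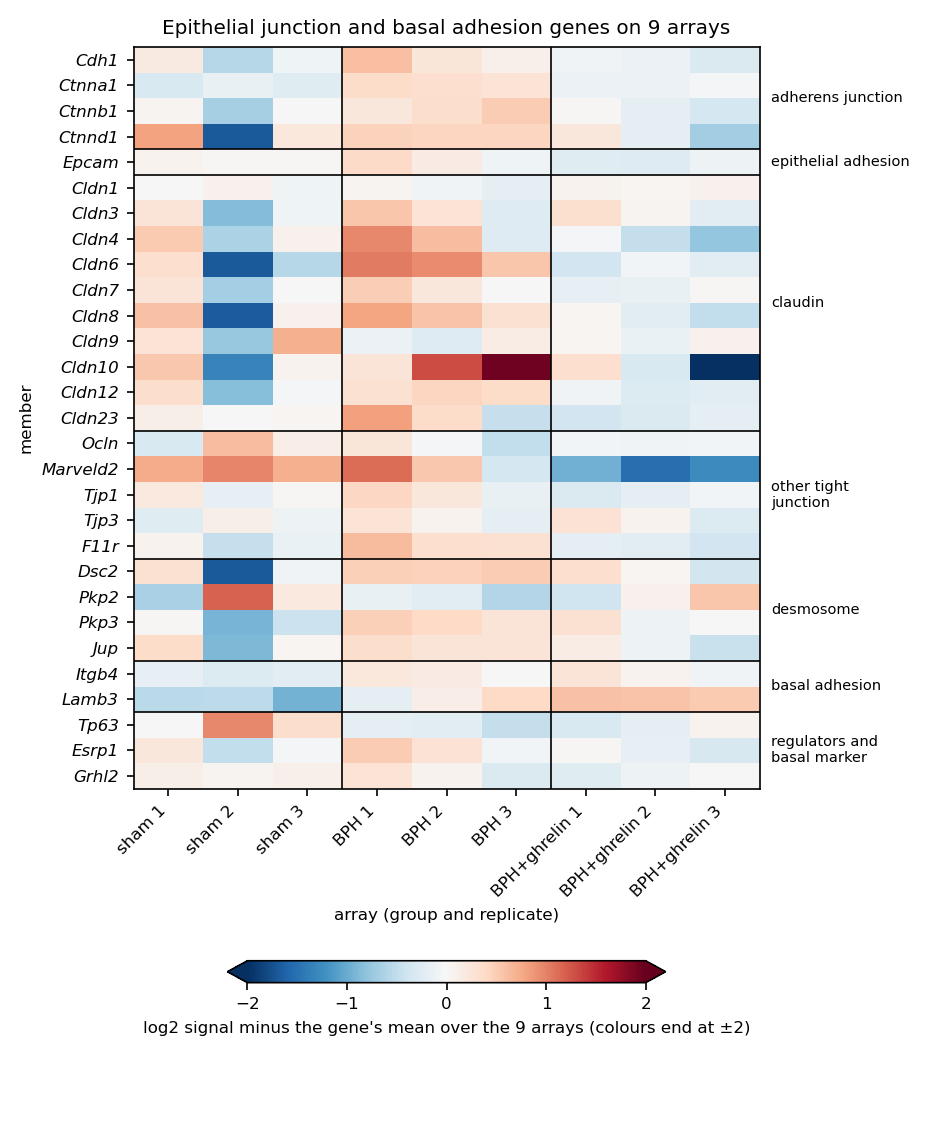
Colours give the log2 signal of each of the 29 tested members on each of the 9 arrays minus its mean over the arrays, with members grouped by role and arrays by group. Sham replicate 2 is blue for most claudins, BPH arrays are red for most members, and the BPH+ghrelin arrays are mostly pale, with Marveld2 blue and Lamb3 red on all 3.

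BPH was compared to sham to ask how the junction genes stood in castrated, DHT-treated rats. Means of 22 of the 29 members were higher in BPH, beside 53.7% of all 19552 genes tested, where an array accession with no matched name counts as a gene of its own, and the median log2 difference of the members was 0.43, beside 0.04 over all genes. 1 member, Ctnna1, passed the test (limma, Benjamini-Hochberg adjusted p below 0.05 over all genes tested), compared to 4.33% of all genes. At an unadjusted p below 0.05 there were 8 members, beside 26.5% of all genes, which is a share near the background. In 8 members every BPH array lay above every sham array, beside 17.1% of all genes, and Tp63 was the 1 member in which every BPH array lay below, beside 14.2%. A difference of at least 2-fold was seen in 2 members, Cldn6 and Cldn10, beside 8.16% of all genes. Cldn6, also among the 8 without overlap, was well above background on 3 BPH arrays but only 1 sham array. It thus passed the filter mainly through the group where it was high, and its difference is not taken as support. Without sham replicate 2 the median of the members was 0.14, with 21 of 29 higher, beside 52.8% of all genes, and 8 not overlapping upward, beside 23.1%, while the latter count was 15 without BPH replicate 3 (beside 22% of all genes) and 15 without sham replicate 1 (beside 28.3%), and with arrays scaled to their 75th percentile it was 0.11, with 20 of 29 higher and a median of -0.09 over all genes.

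BPH+ghrelin was compared to BPH to ask what ghrelin added. Means of 6 of the 29 members were higher and 23 lower, beside 51.7% of all 19749 genes higher, and the median log2 difference of the members was -0.40, beside 0.02 over all genes. None of the 29 passed the test, beside 1.48% of all genes, while 8 members had an unadjusted p below 0.05, beside 21.1% of all genes. Marveld2 came closest with an adjusted p of 0.0546, and it passed the threshold in 6 of 17 alternative analyses. Every BPH+ghrelin array lay below every BPH array in 12 members, beside 19.3% of all genes, and above in 1 member, Lamb3, beside 19.8%. Cldn6, Cldn10 and Marveld2 differed at least 2-fold, that is 3 of 29, beside 6.1% of all genes. With arrays scaled to their 75th percentile, 17 of the 29 members were lower in place of 23, and the median was -0.30, beside 0.10 over all genes. With slide as a block 22 were lower and the median was -0.26. Leaving out 1 array at a time gave 21 to 24 lower members and 12 to 20 not overlapping downward, with 20 without BPH replicate 3, beside 27.9% of all genes.

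BPH+ghrelin was also compared to sham. Here 14 of the 29 members were higher, beside 54.4% of all 19197 genes, and the median log2 difference was 0.00, beside 0.04 over all genes. 2 members passed the test, Marveld2, which fell, and Lamb3, which rose, beside 6.3% of all genes. These 2 were also the members that differed at least 2-fold, beside 7.41% of all genes. At an unadjusted p below 0.05 there were 4 members, beside 23.7%. The BPH+ghrelin arrays lay above all sham arrays in 3 members (Ctnna1, Itgb4 and Lamb3), beside 17.5% of all genes, and below them in 4 (Epcam, Cldn23, Marveld2 and Grhl2), beside 12.8%. Without sham replicate 2, 8 of the 29 members were higher, with a median of -0.22, and 10 lay below without overlap, beside 22.2% of all genes. Without sham replicate 1, 19 were higher, with a median of 0.10, beside 55.1% of all genes higher. Leaving out any other array gave 10 to 17 higher. The 3 comparisons share arrays pairwise, and BPH enters the first and the second with opposite sign, so their values are given side by side and not as separate evidence.

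**Figure D2:**
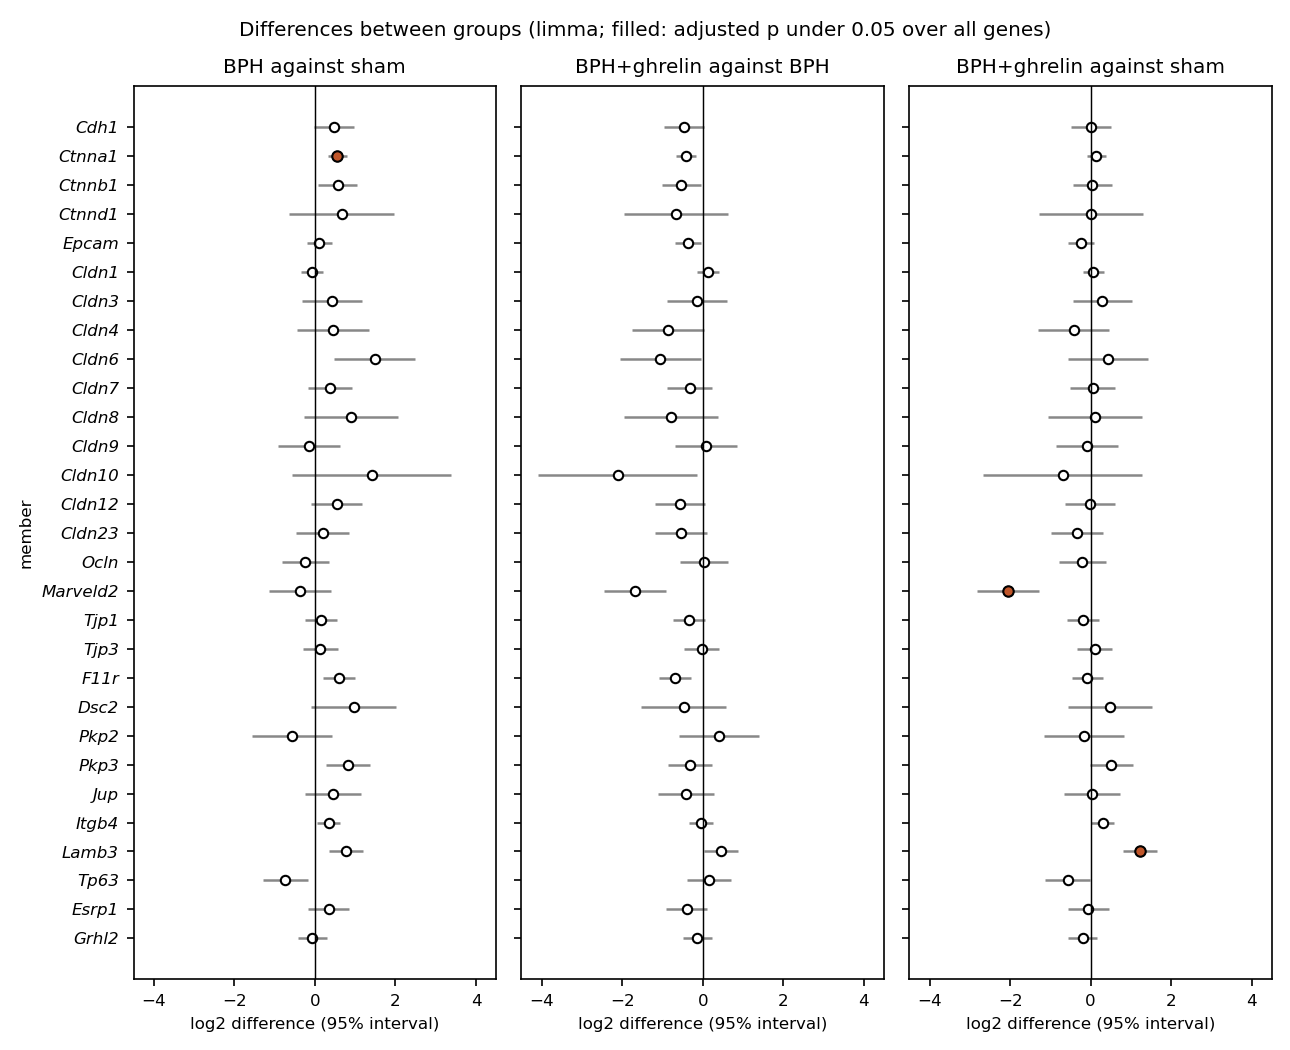
Points give the log2 difference of each member in the 3 comparisons with its 95% interval, and filled points had an adjusted p below 0.05 in limma. Ctnna1 is filled in BPH against sham, none in BPH+ghrelin against BPH, and Marveld2 and Lamb3 in BPH+ghrelin against sham, with the widest intervals for Cldn10.

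The tight junction membrane proteins of the MARVEL family, to which Marveld2 and Ocln belong, differed in their values although their genes are neighbours. Marveld2 encodes tricellulin, which seals the points where 3 cells meet. Its log2 signals were 6.63, 6.87 and 6.60 in the sham arrays, 7.00, 6.43 and 5.54 in the BPH arrays and 4.92, 4.37 and 4.61 in the BPH+ghrelin arrays. The BPH+ghrelin arrays were all below the other 6, while BPH replicates 2 and 3 lay below the sham arrays and BPH replicate 1 above them. BPH differed from sham by -0.38 (SE 0.34, adjusted p of 0.488), with 0.015 without BPH replicate 3 and -0.71 without BPH replicate 1, and -0.855 with slide as a block. The mean difference between BPH+ghrelin and sham was -2.06 (SE 0.34), a 0.239-fold level, with an adjusted p of 0.0147. The call was lost without BPH+ghrelin replicate 2 (adjusted p of 0.0741), without sham replicate 3 (0.0587) and with slide as a block (0.134), while without sham replicate 2 the difference was -1.98. Within slide 2 the difference was -2.26. Compared to BPH the mean difference was -1.69 (SE 0.34, adjusted p of 0.0546), within slide 1 it was -1.40, and without BPH replicate 3 it was -2.08 with an adjusted p of 0.0222. Normexp background correction, which adds an offset and so compresses dim signals, gave -0.67 against BPH and -0.80 against sham, both of the same sign.

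Ocln encodes occludin, a strand protein of the tight junction. The arrays gave Ocln log2 signals of 9.35, 10.27 and 9.79 in the sham arrays, 9.90, 9.64 and 9.17 in the BPH arrays and 9.60, 9.59 and 9.60 in the BPH+ghrelin arrays. The 3 groups overlapped, and the BPH+ghrelin arrays lay within a narrow range inside the spread of the others. The differences were -0.24 (SE 0.26, adjusted p of 0.574) in BPH compared to sham and 0.03 (SE 0.26, adjusted p of 0.963) in BPH+ghrelin compared to BPH, with a 95% interval of -0.56 to 0.62 for the latter, so that a change of the size seen in Marveld2 lies outside the interval. The former was -0.001 without sham replicate 2.

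Of the remaining tight junction genes, F11r encodes the junctional adhesion molecule JAM-A. Its log2 signals were 8.90, 8.37 and 8.70 in the sham arrays, 9.47, 9.16 and 9.14 in the BPH arrays and 8.65, 8.61 and 8.45 in the BPH+ghrelin arrays, so that BPH lay above both other groups without overlap. The mean difference was 0.60 (SE 0.17, adjusted p of 0.0822) in BPH compared to sham and -0.69 (SE 0.17, adjusted p of 0.0879) in BPH+ghrelin compared to BPH, and neither passed the test. Tjp1 encodes the scaffold ZO-1, which ties tight junction proteins to actin. Log2 signals of Tjp1 were 11.57, 11.22 and 11.40 in the sham arrays, 11.79, 11.60 and 11.24 in the BPH arrays and 11.08, 11.20 and 11.32 in the BPH+ghrelin arrays, with overlap of all groups. The differences of Tjp1 were 0.15 (adjusted p of 0.6) and -0.34 (adjusted p of 0.293), the first being 0.06 without sham replicate 2, and its other probe gave 0.36 (adjusted p of 0.266) and -0.46 (adjusted p of 0.224). Tjp3, which encodes a related scaffold, had differences of 0.13, -0.03 and 0.10 in the 3 comparisons and log2 signals of 10.97 to 11.54 over the 9 arrays. With 1 array left out these ranged from 0.02 to 0.25, from -0.16 to 0.12 and from -0.03 to 0.25, and the second was 0.23 within slide 1.

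The claudins are the strand proteins that set which ions pass between cells. Among the 10 tested, 8 were higher in BPH compared to sham (median 0.44) and 8 were lower in BPH+ghrelin compared to BPH (median -0.55), and 0 passed the test in any of the 3 comparisons, while 1 (Cldn6) and then 2 (Cldn6 and Cldn10) had an unadjusted p below 0.05 in these comparisons, beside 26.5% and 21.1% of all genes. With arrays scaled to their 75th percentile the counts were 7 of 10 and 7 of 10, with medians of 0.19 and -0.36, and without sham replicate 2 the first median was 0.15, with 8 of 10 higher. Cldn6, a claudin best known from embryonic epithelium, had log2 signals of 3.78, 1.76 and 2.87 in the sham arrays, 4.47, 4.38 and 4.00 in the BPH arrays and 3.06, 3.39 and 3.23 in the BPH+ghrelin arrays. The 3 BPH arrays were above all other arrays, but Cldn6 was dim, well above background on 1 of 3 sham, 3 of 3 BPH and 2 of 3 BPH+ghrelin arrays. Its differences were 1.48 (SE 0.44, adjusted p of 0.0894) in BPH compared to sham and -1.06 (SE 0.44, adjusted p of 0.217) in BPH+ghrelin compared to BPH. With normexp these were 0.23 and -0.17, and without sham replicate 2 the first was 0.96.

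Cldn10, which encodes a claudin that forms ion pores, had log2 signals of 5.95, 4.08 and 5.48 in the sham arrays, 5.67, 6.72 and 7.36 in the BPH arrays and 5.74, 5.11 and 2.57 in the BPH+ghrelin arrays. BPH+ghrelin replicate 3 was far below the other 8 arrays, and it was not well above background there. The difference was 1.41 (SE 0.86, adjusted p of 0.321) in BPH compared to sham and -2.11 (SE 0.86, adjusted p of 0.213) in BPH+ghrelin compared to BPH, and -1.16 without BPH+ghrelin replicate 3. Within slide 1 the latter was -0.84, and with slide as a block the former turned to -0.33. With normexp the differences of Cldn10 were 0.60 and -0.77, and without sham replicate 2 the first was 0.87.

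Cldn12 was the claudin with 2 probes above background. The log2 signals of its brighter probe were 7.11, 5.90 and 6.73 in the sham arrays, 7.06, 7.18 and 7.12 in the BPH arrays and 6.68, 6.48 and 6.53 in the BPH+ghrelin arrays. The dimmer probe gave 3.43, 3.64 and 3.51 in the sham arrays, 4.08, 4.30 and 4.79 in the BPH arrays and 3.43, 3.45 and 3.24 in the BPH+ghrelin arrays, so that on this probe every BPH array lay above the 6 others. Both probes were higher in BPH compared to sham, by 0.54 (adjusted p of 0.242) and 0.86 (adjusted p of 0.0447), and lower in BPH+ghrelin compared to BPH, by -0.56 (adjusted p of 0.282) and -1.02 (adjusted p of 0.045). The brighter probe differed from sham by 0.20 without sham replicate 2. The second probe was looked at after the values were seen, and it was well above background on 2 of 3 sham arrays and on all 6 others.

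Cldn3, Cldn4, Cldn7 and Cldn8 are claudins of secretory and ductal epithelia. Each was lowest in sham replicate 2 except Cldn4, whose lowest value was 13.44 in BPH+ghrelin replicate 3. Their differences in BPH compared to sham were 0.43, 0.45, 0.38 and 0.89, in that order, with adjusted p of 0.413, 0.473, 0.34 and 0.293. They came to 0.11, 0.13, 0.11 and 0.22 without sham replicate 2. In BPH+ghrelin compared to BPH they were -0.14, -0.87, -0.33 and -0.78, with adjusted p of 0.833, 0.246, 0.459 and 0.403. For Cldn8, which sets a tight barrier in ducts, the 3 BPH+ghrelin arrays (9.06, 8.81 and 8.54) lay below the 3 BPH arrays (9.82, 9.59 and 9.34). Cldn1, Cldn9 and Cldn23 differed by -0.07, -0.15 and 0.19 in the first and by 0.13, 0.07 and -0.54 in the second comparison. The first difference of Cldn9 was -0.57 without sham replicate 2 and 0.17 without sham replicate 3, and both differences of Cldn23 depended on the BPH arrays, being -0.10 and -0.245 without BPH replicate 1 and 0.545 and -0.89 without BPH replicate 3. Within slide 1, which held a single BPH+ghrelin array, the second differences of Cldn3 and Cldn4 were 0.13 and -0.48. Log2 signals of Cldn1 ranged from 7.69 to 7.97, the narrowest range among the claudins.

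**Figure D3:**
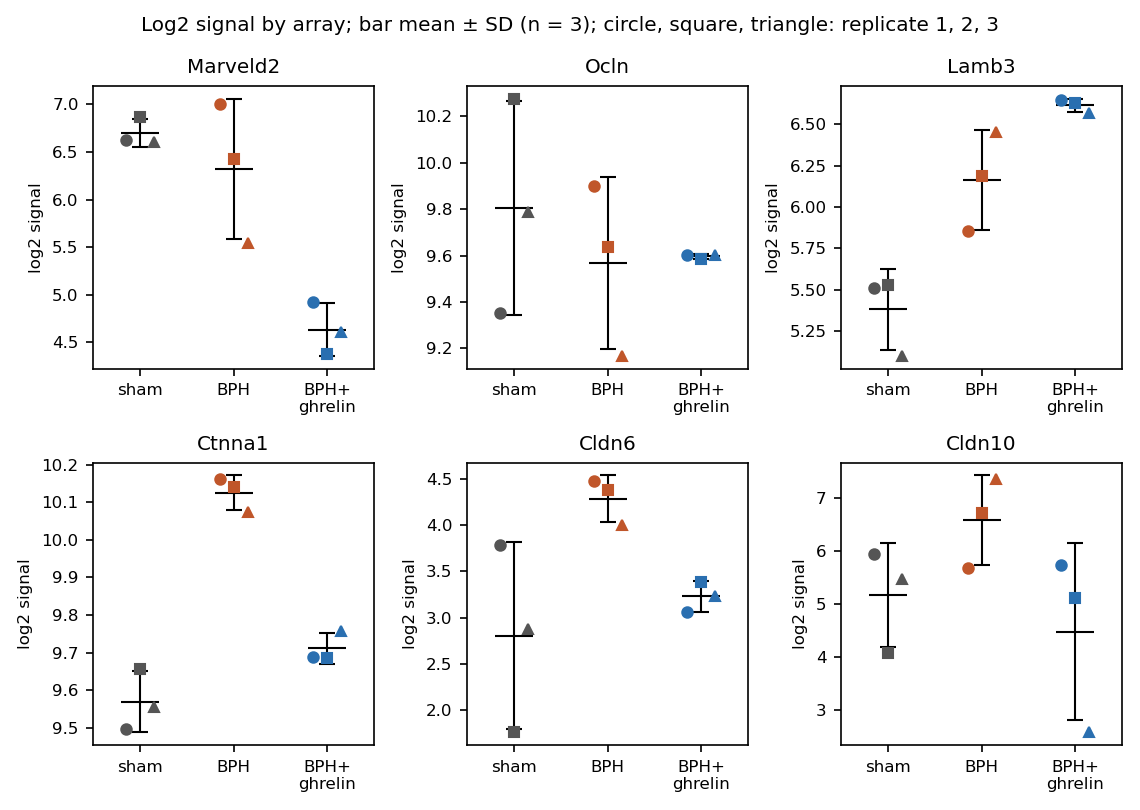
Log2 signals of Marveld2, Ocln, Lamb3, Ctnna1, Cldn6 and Cldn10 are shown by group, with the mean and SD of 3 arrays as bar and whiskers. Marveld2 is lowest in BPH+ghrelin (4.37 to 4.92), Lamb3 highest there (6.57 to 6.65), and Ctnna1 highest in BPH (10.07 to 10.16).

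At the adherens junction, all 4 tested members were higher in BPH compared to sham (median 0.56) and all 4 lower in BPH+ghrelin compared to BPH (median -0.50), and with arrays scaled to their 75th percentile 4 of 4 and 3 of 4. Without sham replicate 2, 3 of the 4 were higher in BPH, with a median of 0.30. Ctnna1 encodes alpha-catenin, which couples the cadherin complex to actin. Its log2 signals were 9.50, 9.66 and 9.56 in the sham arrays, 10.16, 10.14 and 10.07 in the BPH arrays and 9.69, 9.69 and 9.76 in the BPH+ghrelin arrays. The groups did not overlap in any pair, with BPH above BPH+ghrelin and BPH+ghrelin above sham. Ctnna1 was 0.56 (SE 0.11, adjusted p of 0.0316) higher in BPH compared to sham, a 1.47-fold level. This call was lost without BPH replicate 1, 2 or 3 or sham replicate 3 (adjusted p of 0.0651, 0.158, 0.0701 and 0.124), with slide as a block (0.712), with the replicate block (0.0883), with 75th percentile scaling (0.0557) and in a fit of the 6 arrays alone (0.119), while the difference stayed at 0.49 to 0.60. In BPH+ghrelin compared to BPH it was -0.41 (SE 0.11, adjusted p of 0.093), and -0.44 within slide 1.

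Cdh1 encodes E-cadherin, the adhesion receptor of the adherens junction. Log2 signals of Cdh1 were 14.41, 13.66 and 14.14 in the sham arrays, 14.83, 14.46 and 14.32 in the BPH arrays and 14.16, 14.11 and 13.93 in the BPH+ghrelin arrays. All BPH+ghrelin arrays lay below the BPH arrays, and sham replicate 2 was the lowest of all. Differences were 0.47 (SE 0.22, adjusted p of 0.209) in BPH compared to sham, 0.26 without sham replicate 2, and -0.47 (SE 0.22, adjusted p of 0.258) in BPH+ghrelin compared to BPH. With 75th percentile scaling these were 0.06 and 0.01, so the direction of the second depends on the scaling.

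Ctnnb1 encodes beta-catenin, which binds the tail of E-cadherin and also carries Wnt signals. The arrays gave Ctnnb1 log2 signals of 7.75, 7.03 and 7.71 in the sham arrays, 7.93, 8.06 and 8.21 in the BPH arrays and 7.72, 7.52 and 7.35 in the BPH+ghrelin arrays, and the BPH arrays lay above the 6 others. The differences of Ctnnb1 were 0.57 (SE 0.21, adjusted p of 0.145), or 0.335 without sham replicate 2, and -0.53 (SE 0.21, adjusted p of 0.203), or -0.34 within slide 1. Ctnnd1, which stabilises cadherin at the membrane, was at 3.64 in sham replicate 2 and 4.62 to 6.13 on the other arrays, and its differences of 0.66 and -0.66 had SEs of 0.57. The first turned to -0.07 without sham replicate 2. On the other probe it was 0.46 (adjusted p of 0.205), with the 3 BPH arrays above all sham arrays. The second was -0.22 within slide 1 and -0.26 on the other probe. Epcam, an adhesion protein of epithelial cells, had log2 signals of 13.50, 13.46 and 13.46 in the sham arrays, 13.82, 13.60 and 13.35 in the BPH arrays and 13.19, 13.18 and 13.33 in the BPH+ghrelin arrays. The BPH+ghrelin arrays of Epcam were below all others, with differences of -0.36 (SE 0.14, adjusted p of 0.201) compared to BPH and -0.24 (SE 0.14, adjusted p of 0.337) compared to sham, and with 75th percentile scaling the former was 0.04.

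In the desmosome, Jup encodes plakoglobin, which connects the desmosomal cadherins to desmoplakin. Log2 signals of Jup were 9.31, 8.05 and 8.98 in the sham arrays, 9.28, 9.20 and 9.19 in the BPH arrays and 9.09, 8.84 and 8.50 in the BPH+ghrelin arrays. Sham replicate 2 was the lowest, and the BPH+ghrelin arrays lay below the BPH arrays. Jup differed by 0.45 (SE 0.31, adjusted p of 0.371) in BPH compared to sham, by 0.08 without sham replicate 2, and by -0.42 (SE 0.31, adjusted p of 0.458) in BPH+ghrelin compared to BPH, which was -0.14 within slide 1 and -0.26 without BPH+ghrelin replicate 3. Pkp3, a plaque protein, was at 4.43 to 5.38 in sham, 5.62 to 5.84 in BPH and 5.25 to 5.67 in BPH+ghrelin. The difference of Pkp3 in BPH compared to sham was 0.82 (SE 0.24, adjusted p of 0.0835), or 0.58 without sham replicate 2. Dsc2, a desmosomal cadherin, was at 8.07 in sham replicate 2 and 9.38 to 10.24 elsewhere, with a difference of 0.96 (SE 0.46, adjusted p of 0.22), or 0.36 without sham replicate 2. Pkp2, another plaque protein, went the other way on sham replicate 2, where it was highest at 10.49, compared to 8.67 to 9.86 on the other arrays, with differences of -0.56 and 0.40 (adjusted p of 0.424 and 0.622), the first being -0.10 without that array and the second 0.17 without BPH+ghrelin replicate 3 and -0.07 within slide 1.

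Basal adhesion was represented by 2 tested members. Lamb3 encodes the beta-3 chain of the laminin to which hemidesmosomes attach. Its log2 signals were 5.51, 5.53 and 5.10 in the sham arrays, 5.85, 6.19 and 6.45 in the BPH arrays and 6.65, 6.63 and 6.57 in the BPH+ghrelin arrays. The 3 groups did not overlap, with sham lowest and BPH+ghrelin highest. Lamb3 was 1.23 (SE 0.18, adjusted p of 0.0109) higher in BPH+ghrelin compared to sham, a 2.35-fold level, and within slide 2 the difference was 1.08. The call was lost without BPH+ghrelin replicate 2 (adjusted p of 0.0617) and with slide as a block (0.148), and with normexp the difference was 0.54 (0.0126). In BPH compared to sham Lamb3 differed by 0.78 (SE 0.18, adjusted p of 0.0542), and in BPH+ghrelin compared to BPH by 0.45 (SE 0.18, adjusted p of 0.216), with 0.48 within slide 1. With normexp these were 0.318 and 0.225. Of 17 alternative analyses, the first passed the threshold in 5 and the second in 0. Lamb3 was 1 of 6 members with a higher mean in BPH+ghrelin than in BPH, with Cldn1, Cldn9, Ocln, Pkp2 and the brighter probe of Tp63, and of 12 with 75th percentile scaling.

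Itgb4 encodes the beta-4 integrin subunit of the hemidesmosome. The arrays gave Itgb4 log2 signals of 12.59, 12.47 and 12.54 in the sham arrays, 12.96, 12.91 and 12.76 in the BPH arrays and 13.01, 12.81 and 12.68 in the BPH+ghrelin arrays, so that all BPH and BPH+ghrelin arrays lay above all sham arrays. Itgb4 differed by 0.35 (SE 0.13, adjusted p of 0.142) and 0.30 (SE 0.13, adjusted p of 0.196) from sham and by -0.04 (SE 0.13, adjusted p of 0.867) between BPH+ghrelin and BPH, a value that turned to 0.30 with 75th percentile scaling, under which the difference between BPH and sham was 0.11.

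Among the regulators, Tp63 encodes p63, the transcription factor that defines prostate basal cells. The log2 signals of its brighter probe were 10.63, 11.58 and 10.98 in the sham arrays, 10.44, 10.40 and 10.16 in the BPH arrays and 10.32, 10.45 and 10.70 in the BPH+ghrelin arrays. Every BPH array was below every sham array, and sham replicate 2 was the highest. The other probe, designed on a different RefSeq transcript, gave 8.93, 8.23 and 8.87 in the sham arrays, 9.03, 8.95 and 8.81 in the BPH arrays and 8.77, 8.58 and 8.39 in the BPH+ghrelin arrays, with sham replicate 2 the lowest. The difference in BPH compared to sham was -0.73 (SE 0.24, adjusted p of 0.112) on the brighter and 0.25 (adjusted p of 0.451) on the other probe, and in BPH+ghrelin compared to BPH 0.16 (adjusted p of 0.734) and -0.35 (adjusted p of 0.361), so no direction for the gene is given. Without sham replicate 2 the brighter probe differed by -0.47.

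Grhl2 encodes a transcription factor of epithelial junction genes. The log2 signals of its brighter probe were 11.85, 11.79 and 11.85 in the sham arrays, 12.01, 11.82 and 11.46 in the BPH arrays and 11.50, 11.65 and 11.74 in the BPH+ghrelin arrays. The other probe gave 5.16, 5.07 and 5.22 in the sham arrays, 4.72, 4.63 and 4.75 in the BPH arrays and 4.98, 4.94 and 5.18 in the BPH+ghrelin arrays, where the BPH arrays lay below all others. Differences in BPH compared to sham were -0.06 (SE 0.16, adjusted p of 0.813) on the brighter and -0.45 (adjusted p of 0.0678) on the other probe, and in BPH+ghrelin compared to BPH -0.13 (adjusted p of 0.652), or -0.26 within slide 1, and 0.33 (adjusted p of 0.165). Esrp1, a splicing regulator of epithelial cells, differed by 0.34 (adjusted p of 0.354) and -0.40 (adjusted p of 0.339), with log2 signals of 11.06 to 12.07, and the first was 0.14 without sham replicate 2 and the second -0.22 within slide 1.

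**Figure D4:**
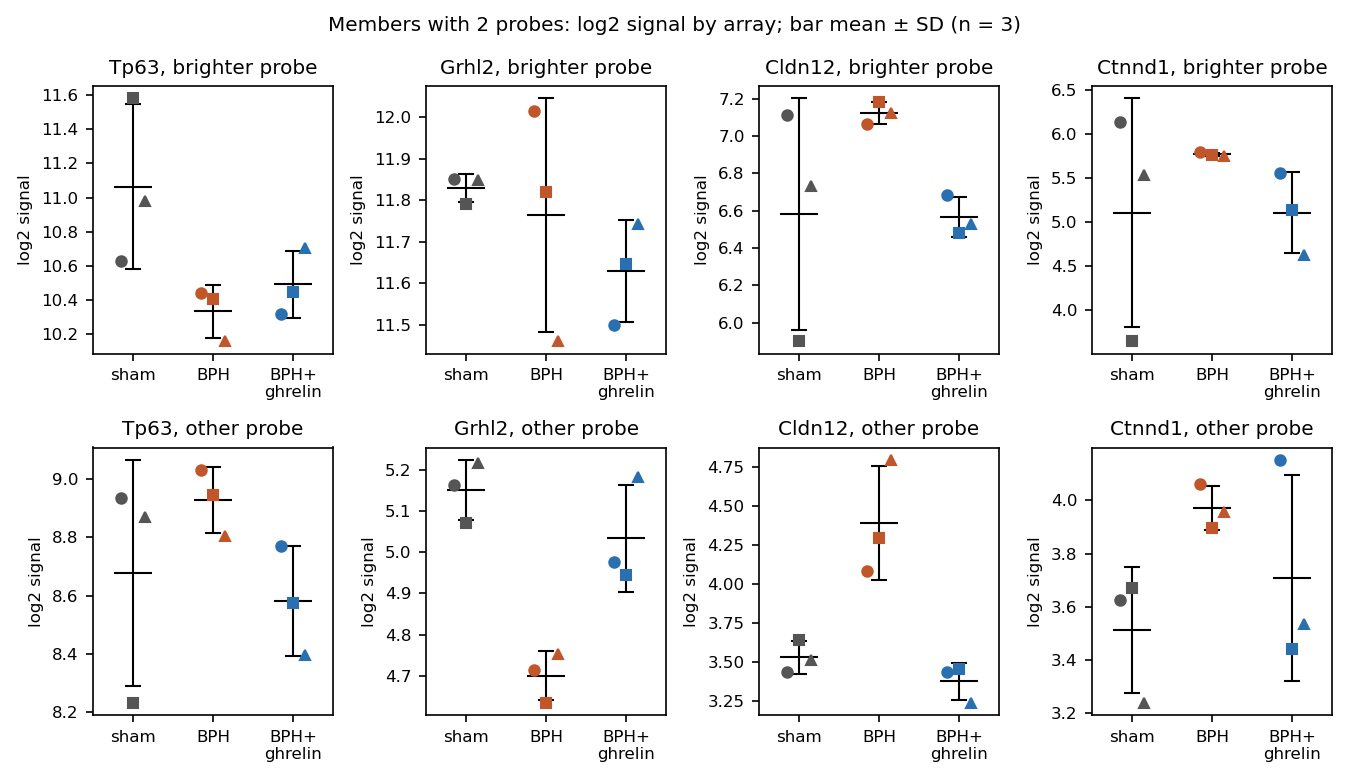
Log2 signals by array for the brighter probe (top) and the other probe (bottom) of Tp63, Grhl2, Cldn12 and Ctnnd1, with mean and SD of 3 arrays. The 2 probes of Tp63 place the BPH arrays below and above the sham mean, and those of Cldn12 both place BPH highest.

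The other genes of these pathways were taken from a fixed list outside the members. Of 28 partners of the apical junction, 21 were tested in BPH compared to sham, where 17 were higher and 4 lower (median 0.26), beside 53.7% of all genes higher. In BPH+ghrelin compared to BPH 22 were tested, where 4 were higher and 18 lower (median -0.31), beside 51.7% of all genes higher. Cgnl1, which encodes paracingulin, a scaffold of tight and adherens junctions, fell by 1.29 (SE 0.23, adjusted p of 0.0246) in BPH compared to sham, and its difference was -1.79 (SE 0.23, adjusted p of 0.00526) in BPH+ghrelin compared to sham. Pals1, a scaffold of the apical polarity complex, fell by 0.72 (SE 0.12, adjusted p of 0.0387) in BPH+ghrelin compared to BPH. These were the only calls in this list, 1 in each comparison, beside 4.33, 1.48 and 6.3% of all genes. Of 8 desmosome partners, 4 were tested and 0 passed in any comparison, with 0 in the first, 1 in the second and 0 in the third at an unadjusted p below 0.05.

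Of 14 hemidesmosome and basement membrane partners, 8 were tested, and 2 rose in BPH compared to sham (beside 4.33% of all genes called in either direction) and 3 in BPH+ghrelin compared to sham (beside 6.3%). Of the 8, 1 was higher and 7 lower in BPH+ghrelin compared to BPH, and 0 passed in limma, with 1 at an unadjusted p below 0.05. Lama5, a laminin alpha chain, rose by 0.85 (SE 0.15, adjusted p of 0.0246) and by 0.68 (SE 0.15, adjusted p of 0.0369) from sham. Cd151, a tetraspanin that binds laminin-binding integrins, rose by 0.65 (SE 0.12, adjusted p of 0.0306) and by 0.64 (SE 0.12, adjusted p of 0.0245). Itgb6 rose by 0.60 (SE 0.13, adjusted p of 0.0379) in BPH+ghrelin compared to sham. Lamb2 and Itgb1 were lower than in sham by values that did not pass the test, with differences of -0.44 and -0.36 in BPH.

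Of 14 epithelial regulators, 11 were tested in BPH compared to sham and 1 passed, beside 4.33% of all genes. This was Spint1, an inhibitor of membrane serine proteases, with a difference of 0.96 (SE 0.19, adjusted p of 0.0355). In BPH+ghrelin compared to BPH, 9 of 11 were lower and 0 passed, with 2 at an unadjusted p below 0.05. Among 8 regulators and markers of the mesenchymal state, 6 were tested, and 1 passed in BPH+ghrelin compared to BPH, beside 1.48% of all genes. Vim, which encodes vimentin of stromal cells, fell by 1.28 (SE 0.19, adjusted p of 0.0252) in BPH+ghrelin compared to BPH, and Snai2 and Zeb2, repressors of junction genes, differed by 1.06 and -2.10 (adjusted p of 0.175 and 0.102) in BPH compared to sham. Of 7 gap junction genes, Gja1 rose by 1.12 (SE 0.26, adjusted p of 0.0425) and Gja4 fell by 0.57 (SE 0.12, adjusted p of 0.0343) in BPH+ghrelin compared to sham, beside 6.3% of all genes called.

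Markers of the cell types in the samples were followed beside the members. Of 7 basal epithelial markers, 6 were tested, of which 5 were higher in BPH compared to sham, 2 in BPH+ghrelin compared to BPH and 4 in BPH+ghrelin compared to sham. Krt14 rose by 0.72 (SE 0.16, adjusted p of 0.0447) and Krt17 by 0.95 (SE 0.19, adjusted p of 0.0356) in BPH compared to sham, beside 4.33% of all genes called. Krt15 rose by 1.21 (SE 0.20, adjusted p of 0.0169) in BPH+ghrelin compared to sham, beside 6.3% of all genes called. Krt5 differed by 0.30 (adjusted p of 0.456), -0.65 (adjusted p of 0.198) and -0.34 (adjusted p of 0.455) in the 3 comparisons. The list's summed signal ranged from 4418 to 6212 in sham, from 5354 to 7135 in BPH and from 7354 to 7775 in BPH+ghrelin. This sum weighs its brightest gene most, Krt15, with mean log2 signals of 11.16, 11.93 and 12.37. By gene, 4 of the 6 tested were lower in BPH+ghrelin compared to BPH (median -0.17). The 10 luminal and secretory markers had summed signals of 233594 to 314782, 148314 to 214847 and 113863 to 174921 in the same order. These sums weigh the brightest genes most, such as Pbsn, Msmb and Cd24, with mean log2 signals of 16.29, 16.11 and 15.91 in sham. Counted by gene, 6 were higher and 4 lower in BPH compared to sham (median 0.41). In BPH+ghrelin compared to BPH, 2 were higher and 8 lower (median -0.16). Within this list Krt8 rose by 0.96 (SE 0.13, adjusted p of 0.0091) in BPH compared to sham, while Pbsn, an androgen-regulated gene, fell by 2.65 (SE 0.23, adjusted p of 0.00189). In BPH+ghrelin compared to BPH, Pbsn, 1 of the 2 genes that were higher, differed by 0.76 (SE 0.23, adjusted p of 0.132).

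Markers of the stroma and blood were lower in BPH+ghrelin compared to BPH in 7 of 7 smooth muscle, 6 of 7 fibroblast, 5 of 6 endothelial, 3 of 5 leukocyte, 4 of 4 adipose and 2 of 5 nerve and Schwann cell genes tested. In BPH compared to sham, 5 of 7 smooth muscle, 7 of 7 fibroblast, 3 of 6 endothelial, 3 of 5 leukocyte, 4 of 4 adipose and 3 of 5 nerve and Schwann cell genes were higher, and 0 of these passed the test, with 3 endothelial and 3 leukocyte genes at an unadjusted p below 0.05. Those that passed the test in BPH+ghrelin compared to BPH were Myh11 of smooth muscle (difference -0.96, adjusted p of 0.016), Lum of fibroblasts (-1.65, adjusted p of 0.024), the endothelial claudin Cldn5 (-1.35, adjusted p of 0.0272), and Ptprc (-0.82, adjusted p of 0.0368) and Cd74 (-1.06, adjusted p of 0.0162) of leukocytes. Of all genes, 1.48% passed in this comparison. Summed smooth muscle signals were 17676 to 31227 in sham, 17958 to 34452 in BPH and 17192 to 18957 in BPH+ghrelin, and summed fibroblast signals 12965 to 23948, 19425 to 29626 and 18551 to 25771. The part of these cell types in the members' values was not tested.

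**Figure D5:**
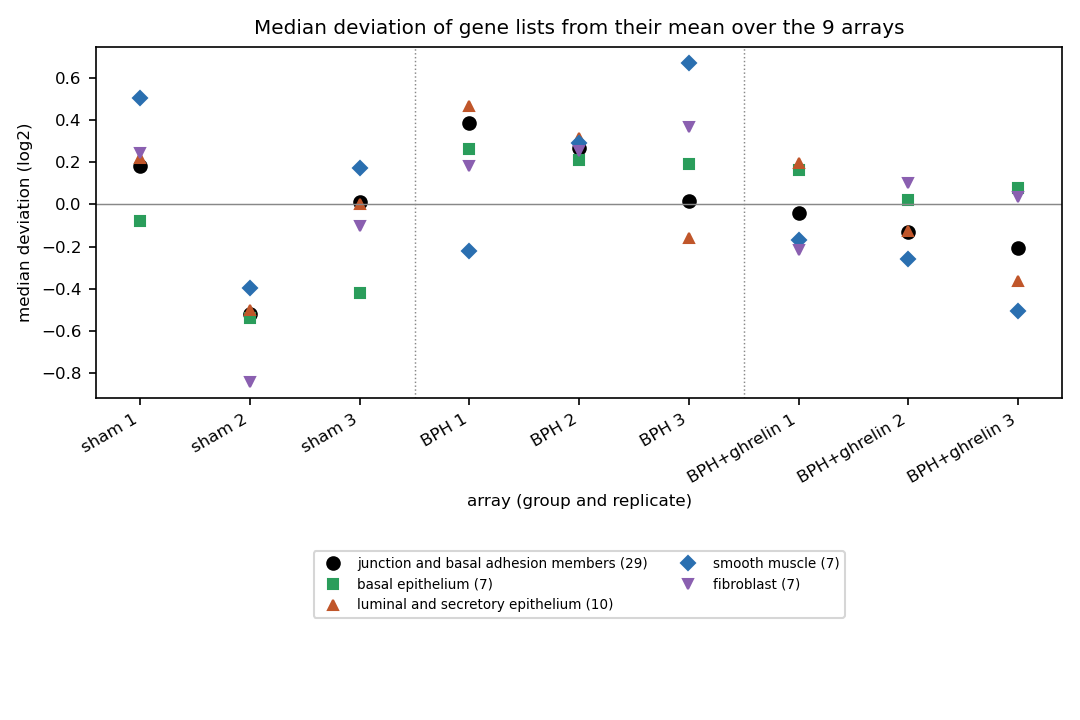
Points give, for each array, the median over a gene list of the log2 signal minus the gene's mean over the 9 arrays, for the 29 members and for 4 marker lists. Sham replicate 2 is lowest for the members (-0.52) and for the basal (-0.54), luminal (-0.50) and fibroblast (-0.84) markers, and BPH replicate 1 is highest for the members (0.39) and for the basal (0.26) and luminal (0.47) markers.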

How the data were processed

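Rat prostate was analysed on 9 arrays, 3 each of sham, BPH and BPH+ghrelin. The authors deposited scanner output per array (44254 spots, 42877 not controls). The deposited intensity of each spot was linear, with the background subtracted by the scanner software, and had no normalization across arrays. Flags for outliers and for signals well above background were deposited beside it. The deposited matrix of log2 values, quantile normalized by the authors with a lowest value of 2.322 and medians of 5.251, was used as an alternative only. Its 9 columns each correlated best with their own array (r of at least 0.989). It was not centred, and its direction was that of the signals.

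Control and outlier spots were dropped, spots of a probe averaged, log2 values quantile normalized over the 9 arrays, and for each gene the brightest probe was kept among those well above background on 3 or more of the 6 arrays in a comparison. Accessions of 17998 of 30356 probes (59.3%) were matched to RefSeq (assembly GRCr8), from which names and promoters were taken, and an unmatched accession or probe was tested as a gene of its own. The array headers name another build, and none of its coordinates are given. Groups were compared with limma 3.58.1 in R 4.3.3 (lmFit and eBayes over 3 groups and 9 arrays, Benjamini-Hochberg adjustment over all genes tested, threshold 0.05, two-sided). The procedure was run on simulated data with known changes and independent noise on each array. The simulation held no slide effect and no deviating array, so it does not cover these features of the data. Raw signals had a 75th percentile of 327 to 1065, and 0 spots were saturated. The number of arrays limits the precision.

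Members named with array values had an adjusted p below 0.05 or a difference of at least 2-fold in some comparison, or were Cdh1, Epcam, Ocln, Tjp1, Jup, Itgb4, Tp63 or Grhl2, with Dsp also in this rule but not matched. F11r, Cldn8, Cldn12 and Ctnnb1 were added after their values were seen. The members, gene lists and tests were chosen with earlier results of these data known. Alternatives were 75th percentile scaling, normexp, other filters, the mean of a gene's probes, the 6 arrays alone, trended eBayes, the deposited matrix, replicate number or slide as a block, and each array left out. Slide as a random block, other probes, and counts and every member's differences with 1 array left out, were added after seeing the data. Single values of some genes of the marker and pathway lists are not reported here.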

Additional observations from a re-analysis of the deposited data

How the results depend on the processing

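The number of members called in BPH compared to sham was 1, and it was 0 with 75th percentile scaling, in a fit of the 6 arrays alone, with the replicate block and with slide as a block (beside 4.59, 0.926, 1.24 and 0.0102% of all genes called), 2 (Ctnna1 and Lamb3) with a filter on all 6 arrays or the deposited matrix (beside 6.55 and 5.29%), and 12 with slide as a random block, which called 36.3% of all genes in place of 4.33%. Leaving out 1 array gave 0 to 6, with 6 without sham replicate 1, beside 15.7% of all genes, and 0 without BPH replicate 2, BPH replicate 3 or sham replicate 3. The median of the members, 0.427, was 0.114 with 75th percentile scaling, which also moved the median of all genes from 0.039 to -0.087, 0.166 with slide as a block, and 0.14 to 0.58 with 1 array left out, the lowest without sham replicate 2. In BPH+ghrelin compared to BPH, 0 members were called, with 1 under 75th percentile scaling, normexp, trended eBayes or the deposited matrix (beside 2.61, 2.02, 1.51 and 1.85% of all genes). There were 3 with slide as a random block (beside 9.27% of all genes), and 5 (Ctnna1, F11r, Cldn12, Marveld2 and Cldn6) in the fit of the 6 arrays alone (beside 10.6%). With 1 array left out 0 to 1 were called, and the median stayed between -0.462 and -0.261. With slide as a block 0 were called, beside 0.0101% of all genes, and the median was -0.264 in place of -0.401. In BPH+ghrelin compared to sham, 2 were called, with 0 with slide as a block (beside 0.438% of all genes in place of 6.3%) and 0 to 2 with 1 array left out (0 without BPH+ghrelin replicate 2, beside 1.16%, and 1 without sham replicate 3, beside 1.34%), and Lamb3 and Marveld2 were those called in each fit that called 2.

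Of 673 values of named members under alternatives, 632 kept direction and side of the threshold or were called in neither (33 of them turned sign while uncalled), 13 lost a call, 24 gained one and 4 turned sign from a value with an unadjusted p below 0.05 on either side. These were Tp63 in BPH compared to sham on its other probe (0.249), and in BPH+ghrelin compared to BPH Epcam (0.039) and Itgb4 (0.3) with 75th percentile scaling and Grhl2 on its other probe (0.334). The causes were not tested. Replicate numbers did not pair the arrays (r of -0.143 to 0.262 between deviations of same-numbered arrays), and the replicate block changed the call of Ctnna1 in BPH compared to sham (adjusted p of 0.0883) and no other call among the members. Signal over background limits Cldn6, Cldn10 and the dimmer probe of Cldn12.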
